A study of Saccharomyces cerevisiae with 10 samples.

Results

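Nuclear depletion of Nrd1 was compared with a cassette control in budding yeast by counting, feature by feature, the RNA fragments crosslinked to a tagged protein. Every feature with a mean of at least 10 normalised reads over the 4 libraries was kept, which left 6347 of the 6677 listed features. Features just below that limit were YHR131W-A, PAU7 and YCL023C, with means of 9.89, 9.91 and 9.94, and those just above it were YBR013C, YER085C and YJR128W, with means of 10.1, 10.1 and 10.1. The assay was PAR-CLIP, in which RNA is crosslinked to a protein in living cells, purified with it and sequenced. The labels name the tagged protein as Rpb2HTB, a tagged subunit of RNA polymerase II (Pol II), for the Nrd1 strain only.

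The Nrd1 group (strain Rpb2HTB_NrdFRB, number 2771) held 2 libraries from cells treated with rapamycin for 45 min, and the control group (strain NabCassette, number 2876) held 2 libraries from cells without rapamycin. Both were grown in synthetic medium limiting in uracil. In an anchor-away strain, rapamycin bridges the FRB tag to an anchor protein that carries the tagged protein out of the nucleus. Strain, rapamycin and loss of nuclear Nrd1 changed together, so their contributions cannot be told apart. The tagged protein is not labelled for the cassette strain, so the labels do not show whether it differed as well. Depth was 12084304 and 9584474 reads for the cassette libraries and 7395659 and 8077260 for the Nrd1 libraries. Whether replicate libraries stem from different cultures is not labelled, and every p-value here refers to the spread of the libraries alone. Genes of both mating types had reads, at unequal levels. MF(ALPHA)1, the main alpha-factor gene, stood at 3713 and 4596 normalised reads in the controls and 5379 and 4058 after depletion, and MF(ALPHA)2 at 86.9 and 121 and 311 and 155. The alpha-cell genes STE3 and SAG1 had 1456 and 1643, and 630 and 885, in the controls. After depletion they had 2431 and 1545, and 1684.5 and 1011. Of the a-cell genes, MFA1 and MFA2 stayed at or below 18, AGA2 between 13.5 and 22.3 and ASG7 between 51.7 and 70.4. STE2, the alpha-factor receptor, lay between 245 and 461, BAR1 between 88 and 139, and STE6, the a-factor exporter, between 827 and 856.

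Nrd1 and Nab3 bind short motifs in nascent RNA and, with the helicase Sen1, end Pol II transcription early. The RNA is then trimmed or destroyed by the nuclear exosome. The complex forms the ends of snoRNAs and of unstable antisense and intergenic transcripts, and it also stops transcription near the start of a set of mRNA genes, NRD1 itself and IMD2 among them.

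The sequences below are the start regions of NRD1 and IMD2, which are textbook targets of early termination, and the bases that follow 3 snoRNA genes whose downstream neighbour rose. They were read from the R64 genome of RefSeq, in the direction of transcription. Capitals mark GTAG and GTAA, the core letters known for Nrd1, and TCTTG, those known for Nab3, on the printed strand. The NRD1 and IMD2 stretches run from 250 bases before to 50 bases after the annotated start codon.
NRD1 start region (chrXIV:174266-174565, minus strand): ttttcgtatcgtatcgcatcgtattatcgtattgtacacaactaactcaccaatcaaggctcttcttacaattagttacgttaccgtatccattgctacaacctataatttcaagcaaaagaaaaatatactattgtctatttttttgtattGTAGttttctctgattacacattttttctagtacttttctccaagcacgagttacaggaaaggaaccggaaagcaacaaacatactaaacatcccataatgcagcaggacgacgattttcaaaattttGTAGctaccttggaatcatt
IMD2 start region (chrVIII:554146-554445, plus strand): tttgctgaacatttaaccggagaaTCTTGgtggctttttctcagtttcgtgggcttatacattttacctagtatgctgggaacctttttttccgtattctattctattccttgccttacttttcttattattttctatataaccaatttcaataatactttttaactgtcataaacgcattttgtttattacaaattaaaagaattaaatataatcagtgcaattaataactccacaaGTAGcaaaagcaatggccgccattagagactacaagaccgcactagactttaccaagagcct
SNR47 downstream, towards YDR042C (chrIV:541302-541601, minus strand): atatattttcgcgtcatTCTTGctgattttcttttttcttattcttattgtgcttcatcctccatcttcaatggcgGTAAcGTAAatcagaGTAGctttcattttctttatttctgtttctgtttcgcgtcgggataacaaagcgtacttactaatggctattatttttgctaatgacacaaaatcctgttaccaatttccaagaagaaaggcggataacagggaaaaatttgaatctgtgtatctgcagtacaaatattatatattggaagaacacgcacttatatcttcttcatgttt
SNR13 downstream, towards TRS31 (chrIV:1403043-1403321, plus strand): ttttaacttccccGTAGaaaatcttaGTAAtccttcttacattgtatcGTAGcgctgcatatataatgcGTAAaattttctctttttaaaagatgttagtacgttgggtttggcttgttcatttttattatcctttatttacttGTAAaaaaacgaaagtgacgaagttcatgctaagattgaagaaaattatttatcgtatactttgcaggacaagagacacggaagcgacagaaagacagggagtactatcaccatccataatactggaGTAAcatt
SNR79 downstream, towards SEN2 (chrXII:348181-348426, minus strand): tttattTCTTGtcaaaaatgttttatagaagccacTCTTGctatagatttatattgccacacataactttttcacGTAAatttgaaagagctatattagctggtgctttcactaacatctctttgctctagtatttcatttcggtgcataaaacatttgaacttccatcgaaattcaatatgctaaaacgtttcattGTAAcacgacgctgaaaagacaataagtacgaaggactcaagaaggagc

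After Nrd1 depletion 1110 features rose (17.5% of those tested) and 1128 fell (17.8%), by limma on log2(value + 1) with Benjamini-Hochberg adjusted p under 0.05. The rises were more often large: 251 were at least 2-fold (3.95%), against 93 falls of that size (1.47%). Of these, 205 rises and 42 falls were among the 1587 features with the lowest mean over the 4 libraries. In the next 1587, 1586 and 1587 features by mean, large rises numbered 17, 8 and 21 and large falls 22, 11 and 18. The excess of large rises thus lay among the features with the lowest mean. Over all tested features the median log2 difference was -0.0044. The call counts moved with the libraries kept: 376 rose and 265 fell without cassette library 1, and 392 rose and 311 fell without cassette library 2. With Nrd1 library 1 left out, 1443 rose and 1559 fell, and with Nrd1 library 2 left out, 1758 and 1864. Without the intensity trend in the variance, 703 features fell. A count test on the recovered whole reads (edgeR) called 1128 rises and 1152 falls.

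**Figure D1:**
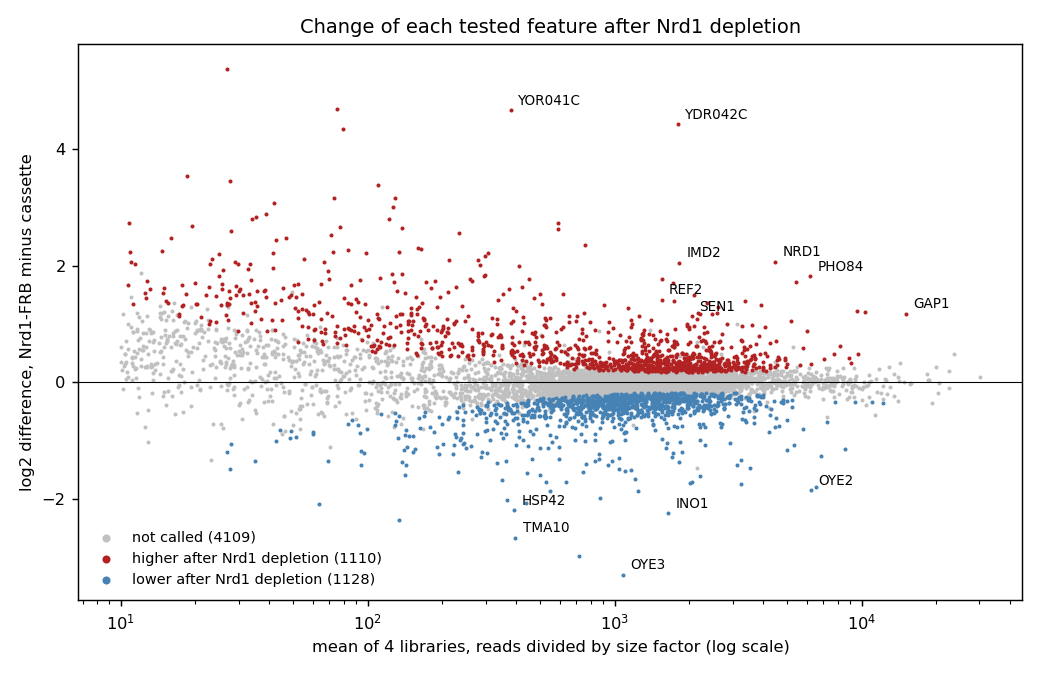
Each point is a tested feature, with its mean over the 4 libraries on a log scale (reads divided by size factor) against its log2 difference between the Nrd1-FRB and cassette libraries. Red and blue points passed limma's test at an adjusted p under 0.05 (1110 higher and 1128 lower), and the largest rises, such as YDR042C at 4.43, lay above the largest falls in size.

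In the termination complex NRD1 and SEN1 rose and NAB3 was not called. NRD1 (chrXIV:172588-174315, minus strand) went from 1659 and 1781 normalised reads in the controls to 7457 and 6987.5 in the Nrd1 libraries. Both depleted libraries lay far above both controls, a log2 difference of 2.07 ± 0.068 (SE, n = 2 and 2 libraries; limma adjusted p = 1.73e-05). Anchor-away moves the protein and leaves the gene in place, so these reads do not measure the depletion. SEN1, the helicase of the complex (chrXII:993434-1000129, plus strand), stood at 1262 and 1306 before and 2942 and 2684 after depletion, a log2 difference of 1.13 ± 0.065 (limma adjusted p = 9.86e-05). NAB3, the partner RNA-binding protein, went from 2153 and 2179 to 1939.5 and 2035; its difference of -0.12 did not pass the test (limma adjusted p = 0.126).

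Among the factors of ordinary mRNA 3-prime end formation, 5 of 25 rose (20%, beside 17.5% of all features) and 2, RTT103 and GLC7, fell. The falls were 0 and 1 by limma without cassette library 1 and 2, and 9 without Nrd1 library 2. The RTT103 call was lost without cassette library 1 (limma adjusted p = 0.113), and that of GLC7 without cassette library 1 (0.167) or 2 (0.1003). The largest rise was REF2 (chrIV:848599-850200, plus strand), a subunit of the cleavage and polyadenylation machinery, with 839 and 849.6 reads in the cassette and 2284 and 2229.5 after depletion (log2 difference 1.42 ± 0.057, limma adjusted p = 2.50e-05). HRP1, which encodes the cleavage factor subunit that binds mRNA 3-prime ends, had 1341 and 1378 in the controls and 3268 and 2907 after depletion, a log2 difference of 1.18. RAT1, the nuclear exonuclease that releases Pol II from the template after cleavage, went from 2631 and 2670.2 to 3967 and 4104, a log2 difference of 0.61. In none of these 3 genes did the groups overlap, an order seen with higher values after depletion in 35.8% of all features. PCF11, which binds the Pol II tail, had 1933 and 1984 in the controls and 1704 and 1889 after depletion and did not pass the test (limma adjusted p = 0.182). The median of the list was -0.014. Of the 21 members of the Nrd1 complex and the nuclear exosome, 5 rose (23.8%), led by NRD1 and SEN1, and 1, RRP45, fell, at a median of 0.05. The rises were 3 and 2 without cassette library 1 and 2, and without Nrd1 library 2, 8 rose and 5 fell. The RRP45 call (log2 difference -0.24) was lost without cassette library 1 (limma adjusted p = 0.287), without cassette library 2 (0.102), without the variance trend and by DESeq2.

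The textbook list of 11 genes with early termination near the start had 5 rises and 1 fall, with a median log2 difference of 0.39; without Nrd1 library 2, 8 rose and 3 fell. IMD2 (chrVIII:554396-555967, plus strand), an IMP dehydrogenase that limits guanine nucleotide synthesis, had 694 and 721 reads in the cassette and 2949.5 and 2929 after depletion. The libraries of each group lay close together and the groups were wide apart, at a log2 difference of 2.05 ± 0.057 (limma adjusted p = 9.74e-06). URA8, a CTP synthase, went from 1495 and 1555 to 4000.3 and 3462, a log2 difference of 1.29 ± 0.078 (limma adjusted p = 0.00012). CLN3, a G1 cyclin, had 2254 and 2265 in the controls and 3192 and 2752 after depletion, a log2 difference of 0.39, and its call was lost without cassette library 1 (limma adjusted p = 0.0781) or 2 (0.069). The fall was TIS11, which encodes an mRNA-decay factor of the iron response, with 750.3 and 724 in the cassette and 163 and 362 after depletion. Both depleted libraries were lower than the controls, but the second was over 2 times the first, and the call was lost without the variance trend (limma adjusted p = 0.0573).

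IMD2 has close relatives, and reads may be split among them. IMD1, listed without an entry in the annotation used here, went from 161 and 164 to 1097 and 933 (log2 difference 2.63), and IMD3 had 1624 and 1531 in the controls and 3779 and 3457 after depletion (log2 difference 1.20). IMD4 went from 12288 and 12606 to 11429 and 12396 and did not pass the test (limma adjusted p = 0.671). In the list of 20 purine synthesis genes 5 rose (25%) and 3 fell (15%), beside 17.5% and 17.8% of all features. IMD1, IMD2 and IMD3 were the largest of the 5 rises. The falls were ADE1, ADE2 and ADE4, by 0.42, 0.32 and 0.31 on the log2 scale. Those 3 falls were lost without cassette library 1 (limma adjusted p = 0.0645, 0.0678 and 0.119) and without cassette library 2 (0.0605, 0.0794 and 0.101). The list had 3 rises with either cassette library left out and 9 without Nrd1 library 2, and 5 falls with either Nrd1 library left out.

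**Figure D2:**
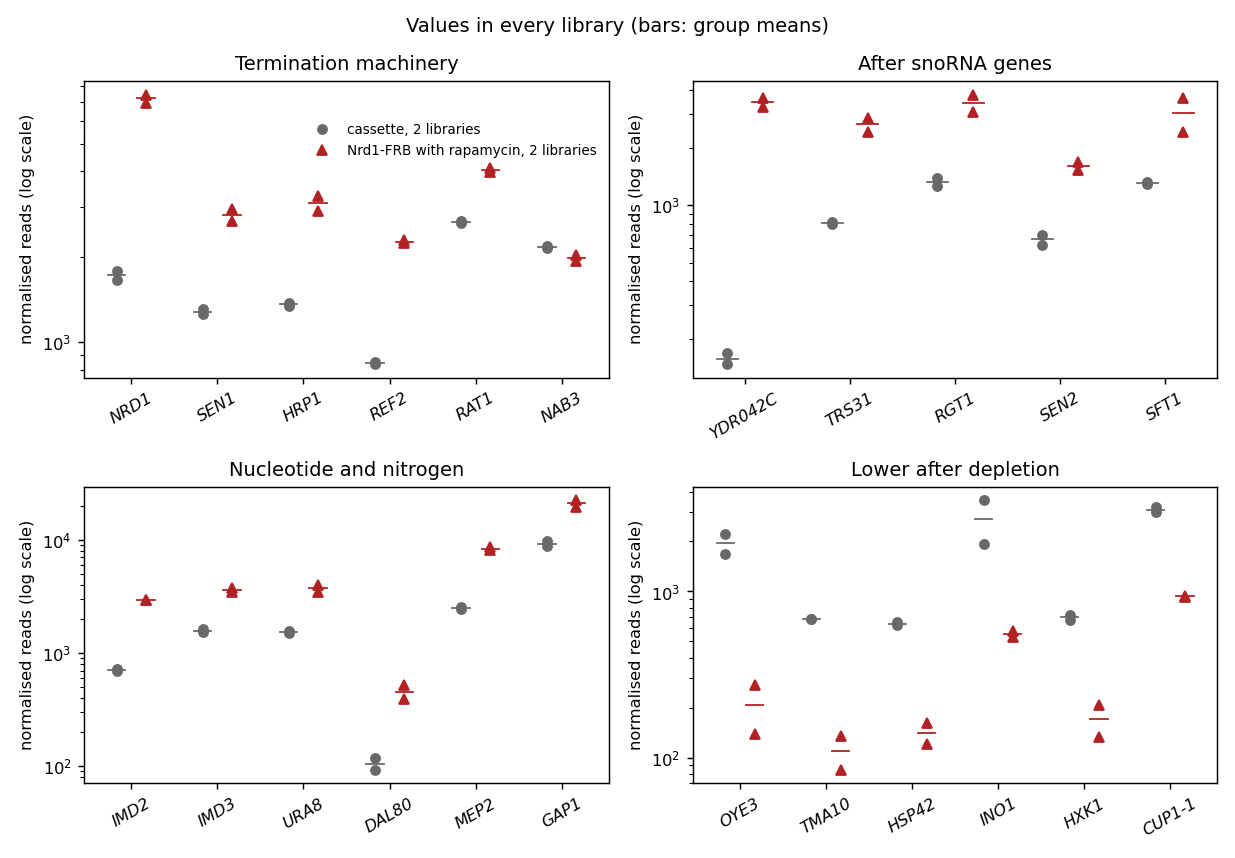
Normalised reads on a log scale for 23 genes in each of the 4 libraries, in 4 panels: circles are cassette libraries, triangles are Nrd1-FRB libraries treated with rapamycin, and short bars are group means. NRD1 rose from 1659 and 1781 to 7457 and 6987.5, NAB3 had 2153 and 2179 in the controls and 1939.5 and 2035 after depletion, and INO1 showed the widest spread between cassette libraries (1942 and 3538).

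The share of rises was larger among genes placed directly downstream of a snoRNA or snRNA gene on the same strand than among all features, a description with no test. Of 35 such genes within 1000 bases, 16 rose (45.7%) and 1 fell, beside 17.5% and 17.8% of all features. Within 500 bases 13 of 22 rose (59.1%) and 0 fell by limma, edgeR or DESeq2 (1 had an unadjusted limma p under 0.05); at that distance the lowest value was UBX6 at -0.30 (limma adjusted p = 0.0576). The median log2 difference of the 35 genes was 0.16. Genes whose start faces away from a snoRNA or snRNA gene did not show this share, with 6 rises and 3 falls of 29. Nor did the genes that follow a tRNA, which Pol III transcribes: 18 of 140 rose and 24 fell.

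YDR042C, an uncharacterised gene (chrIV:540601-541203, minus strand), lies 399 bases past SNR47. It had 168 and 148 reads in the cassette and 3624 and 3248 after depletion, a log2 difference of 4.43 ± 0.095 (limma adjusted p = 3.25e-06). TRS31 (chrIV:1403322-1404173, plus strand), a subunit of the TRAPP vesicle-tethering complexes, starts 280 bases past SNR13, a classical site of this termination pathway. Its values were 815 and 799 in the cassette and 2854 and 2421 after depletion, a log2 difference of 1.70 ± 0.084 (limma adjusted p = 6.40e-05). In both genes every depleted library exceeded every control library. SEN2 (chrXII:347047-348180, minus strand), a subunit of the tRNA splicing endonuclease, starts 247 bases past SNR79 and went from 703 and 622 to 1675 and 1531, a log2 difference of 1.27 ± 0.084 (limma adjusted p = 0.000167). RGT1, the repressor of hexose transporter genes, had 1256.5 and 1389 in the controls and 3781 and 3054 after depletion downstream of SNR69. SFT1, a Golgi SNARE gene, went from 1327 and 1284 to 3645 and 2412 downstream of SNR87; its depleted libraries were both high but differed from each other by a larger ratio than those of the other 4 genes. The 1 fall in the set was OM14, a mitochondrial outer membrane protein gene after the U2 snRNA gene LSR1, with 621 and 587 in the controls and 298 and 354 after depletion.

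The bases after the snoRNA genes often held these motifs whether or not the next gene rose. In windows of up to 300 bases after the 35 genes, GTAG, GTAA and TCTTG were each present in 27 (77.1%), and CTTG in all 35. TCTTG was found after 12 of the 16 whose neighbour rose (75%) and after 15 of the 19 whose neighbour did not (78.9%). GTAG was found in 11 of the 16 (68.8%) and 16 of the 19 (84.2%). These counts are of the strand with the sequence of the RNA, and every TCTTG also contains CTTG. Of the 3 downstream stretches printed above, that after SNR13 holds 2 GTAG and 4 GTAA and no TCTTG, and that after SNR79 holds 2 TCTTG, 2 GTAA and no GTAG.

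In start regions the same letters differed little between the full set of genes that rose and all genes. TCTTG was more frequent in the genes that rose at least 2-fold, a difference that was not tested. Shares are given first for the strand with the sequence of the RNA. GTAG was present in 58% of the 915 rising genes with an annotated start, 52.1% of the 1102 that fell and 54.1% of all 5776. GTAA was present in 76.5%, 77.5% and 76.4%. TCTTG was present in 35.6%, 31.1% and 31.8%. It was present in 46.7% of the 135 genes that rose at least 2-fold (63 genes). On the opposite strand it was in 42.2% of those 135 and in 41.9% of all 5776. The IMD2 stretch holds 1 TCTTG and 1 GTAG, and the NRD1 stretch holds 2 GTAG and no TCTTG.

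Genes that follow a gene that rose did so at about the share of all features. The next gene within 1000 bases on the same strand rose in 83 of 480 cases after a gene that rose (17.3%), in 230 of 1642 after a gene that was tested and not called (14%), and in 66 of 443 after a gene that fell (14.9%). Genes that overlap another gene on the opposite strand rose in 22 of 88 cases (25%). The strand setting of the counting is not given in the sources used here, so reads of such pairs cannot be told apart. Genes within 20000 bases of a chromosome end rose in 40 of 179 cases (22.4%) and fell in 34 (19%). Of all features 17.5% rose and 17.8% fell.

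Features that the RefSeq annotation does not list had a larger share of rises than listed ones, a difference that was not tested. Of 571 such tested features 195 rose (34.1%) and 26 fell, with a median log2 difference of 0.51. Among the 5776 listed ones 915 rose (15.8%) and 1102 fell, with a median of -0.024. The unlisted features were weakly covered, at a median of 58.9 normalised reads in the cassette. Among the 1587 features with the lowest mean over the 4 libraries, 175 of 512 unlisted features rose (34.2%) and 14 fell, against 206 rises and 159 falls among 1075 listed features (19.2% rose). YOR041C, a feature of this kind, had 32.2 and 23.9 reads in the cassette and 779.8 and 680.2 after depletion, a log2 difference of 4.66 ± 0.19 (limma adjusted p = 2.50e-05). YBR298C-A, the feature with the largest fitted difference, had 1 read in cassette library 1, 0 in cassette library 2, and 44 and 47 reads in the Nrd1 libraries. It passed the level limit through its Nrd1 reads alone, so with these control reads a fall could not have been called. Its log2 difference was 5.37 and ranged from 3.45 to 6.998 over the settings. Among genes with a symbol the largest rise was CSM4, a meiotic chromosome movement gene, with 30 and 24.9 in the controls and 223 and 229 after depletion.

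Most listed genes for taking up and using poor nitrogen sources rose. Of 36 genes under nitrogen catabolite repression, the system that shuts these genes off when rich nitrogen is present, 21 rose and 3 fell, at a median log2 difference of 0.34. Without cassette library 1, 13 rose, and without cassette library 2, 15; the falls were 1 with either cassette library left out and 5 without Nrd1 library 2. Rapamycin is known to switch such genes on through the TOR kinases in cells sensitive to it. Whether these strains are sensitive was not tested, and an effect of rapamycin and that of Nrd1 depletion cannot be told apart here. MEP2, the high-affinity ammonium permease (chrXIV:357453-358952, plus strand), had 2464 and 2568 reads in the cassette and 8570.0 and 8079 after depletion (log2 difference 1.73 ± 0.067, limma adjusted p = 2.50e-05). GAP1, the general amino acid permease, had 8812 and 9670.5 in the controls and 22325 and 19569 after depletion (log2 difference 1.18). DAL80, a GATA repressor of the same regulon, went from 92.9 and 118 to 521 and 390.1 (log2 difference 2.10), and DAL1, allantoinase, had 43.4 and 48.8 in the controls and 259.9 and 186 after depletion. For each of these 4 genes both depleted libraries were at least 2 times both controls. A class that the authors named Nitrogen had 16 rises (22.5%) and 10 falls (14.1%) among 71 tested genes, at a median of 0.039. In the authors' own class of nitrogen catabolite repressed genes, from the authors' deposited table, 80 were tested. Of these 35 rose (43.75%, beside 17.5% of all features) and 17 fell (21.25%, beside 17.8%). With cassette library 1 left out these counts were 17 and 11, and without cassette library 2 they were 21 and 9.

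More amino acid permeases rose than fell: 16 of 28 rose and 0 fell by limma, edgeR or DESeq2 (1 had an unadjusted limma p under 0.05), with a median of 0.37. The rises were 10 without cassette library 1 and 11 without cassette library 2, and 5 permeases fell without Nrd1 library 1 and 2 without Nrd1 library 2. UGA4, the GABA permease, went from 136 and 125 to 511 and 426 (log2 difference 1.83), and AGP3, a broad-range amino acid permease, had 196 and 209 in the controls and 719 and 670.1 after depletion (log2 difference 1.77). The other members of the list ranged up to GAP1, and the 12 that were not called included values on both sides of 0. Of 52 genes of Gcn4-controlled amino acid synthesis 16 rose and 1 fell, but only 4 rose without cassette library 1 and 6 without cassette library 2. Without Nrd1 library 1, 25 rose and 7 fell, and without Nrd1 library 2, 9 fell. ARO4, the first enzyme of aromatic amino acid synthesis, was highest at 1.09 (1384 and 1361 in the cassette, 3055 and 2790.5 after depletion).

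Most listed phosphate genes rose. In the list for phosphate uptake and signalling 21 of 27 rose and 1 fell, at a median log2 difference of 0.45, with 11 rises without cassette library 1 and 14 without cassette library 2. PHO84, the high-affinity phosphate transporter (chrXIII:24037-25800, minus strand), had 2479 and 2977 in the cassette and 10542 and 8773 after depletion. Both depleted libraries were well above both controls, a log2 difference of 1.82 ± 0.12 (limma adjusted p = 0.000158). An antisense RNA is transcribed across PHO84, and without a known strand setting its reads cannot be told from those of the gene. SPL2, which lowers low-affinity phosphate uptake, went from 439.6 and 440.1 to 982 and 953 (log2 difference 1.14). PHM6, of unknown function, had 122 and 109 in the controls and 208 and 246 after depletion (log2 difference 0.97), and its call was lost without cassette library 2 (limma adjusted p = 0.054).

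Most listed stress genes fell. Of 36 genes of the general stress response 24 fell and 2 rose, and the median log2 difference was -0.80. TMA10, a stress-induced gene (chrXII:783127-783387, minus strand), had 681 and 684 reads in the cassette and 135 and 84.3 after depletion (log2 difference -2.67 ± 0.21, limma adjusted p = 0.000308). HSP42 (chrIV:806621-807748, plus strand), a small heat shock protein gene, went from 631 and 652 to 162 and 120.3 (log2 difference -2.19 ± 0.16, limma adjusted p = 0.00021). In both the depleted libraries were far below every control. The exceptions to the fall were GRE1, a hydrophilin gene, with 56.9 and 48.8 in the controls and 311 and 224 after depletion, and MSN4, a stress transcription factor gene, with a log2 difference of 0.37 that was lost without cassette library 1 (limma adjusted p = 0.121) or 2 (0.0649).

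Most chaperone and proteasome genes fell. Of 25 targets of the heat shock factor Hsf1, some shared with the stress list, 21 fell and 0 rose by limma, edgeR or DESeq2 (0 at an unadjusted limma p under 0.05), at a median of -0.60. SSA4, a stress-induced Hsp70, had 2032 and 1867.5 in the controls and 585 and 494 after depletion (log2 difference -1.86). HSP82, the inducible Hsp90, went from 9682 and 9489 to 3015 and 5277; both depleted libraries were below the controls, the first much more so than the second. Of 37 proteasome genes, which make the complex that degrades ubiquitin-tagged proteins, 32 fell and 0 rose by the same 3 tools (0 at an unadjusted limma p under 0.05), and the range ran from -0.85 to 0.04 with a median of -0.35. UBI4, polyubiquitin, had 5271 and 5543 in the controls and 2662 and 3368 after depletion (log2 difference -0.85). RPT1, an ATPase of the regulatory particle, went from 2943 and 2720.0 to 1576 and 1889 (log2 difference -0.71). In both the groups did not overlap, and the depleted libraries were lower, an order seen in 37% of all features. Without cassette library 1, 12 proteasome genes fell, and without cassette library 2, 11; the Hsf1 count was 11 and 13. Without the variance trend 19 proteasome genes fell.

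Redox enzymes held the 2 largest falls, OYE3 and AAD16. OYE3, an NADPH oxidoreductase of the old yellow enzyme family (chrXVI:226169-227371, minus strand), had 2216.5 and 1687 in the cassette and 274 and 139 after depletion (log2 difference -3.30 ± 0.29, limma adjusted p = 0.000447). OYE2, its relative, had 10165 and 9395 in the controls and 2609 and 2822 after depletion (log2 difference -1.85). AAD16, an aryl-alcohol dehydrogenase feature without an annotation entry, went from 1322 and 1232 to 152 and 169 (log2 difference -2.99). In each of these the lowest control was over 3 times the highest depleted library. Of the 33 genes in the oxidative stress and drug response list 18 fell and 6 rose. The rises included PDR5, a drug efflux pump, with 4083 and 4359 in the controls and 7025 and 8630.0 after depletion, and PDR3, a transcription factor of the same response, at a log2 difference of 0.83. Without cassette library 1, 9 of the list fell, and without cassette library 2, 11, with 3 rises in each case.

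**Figure D3:**
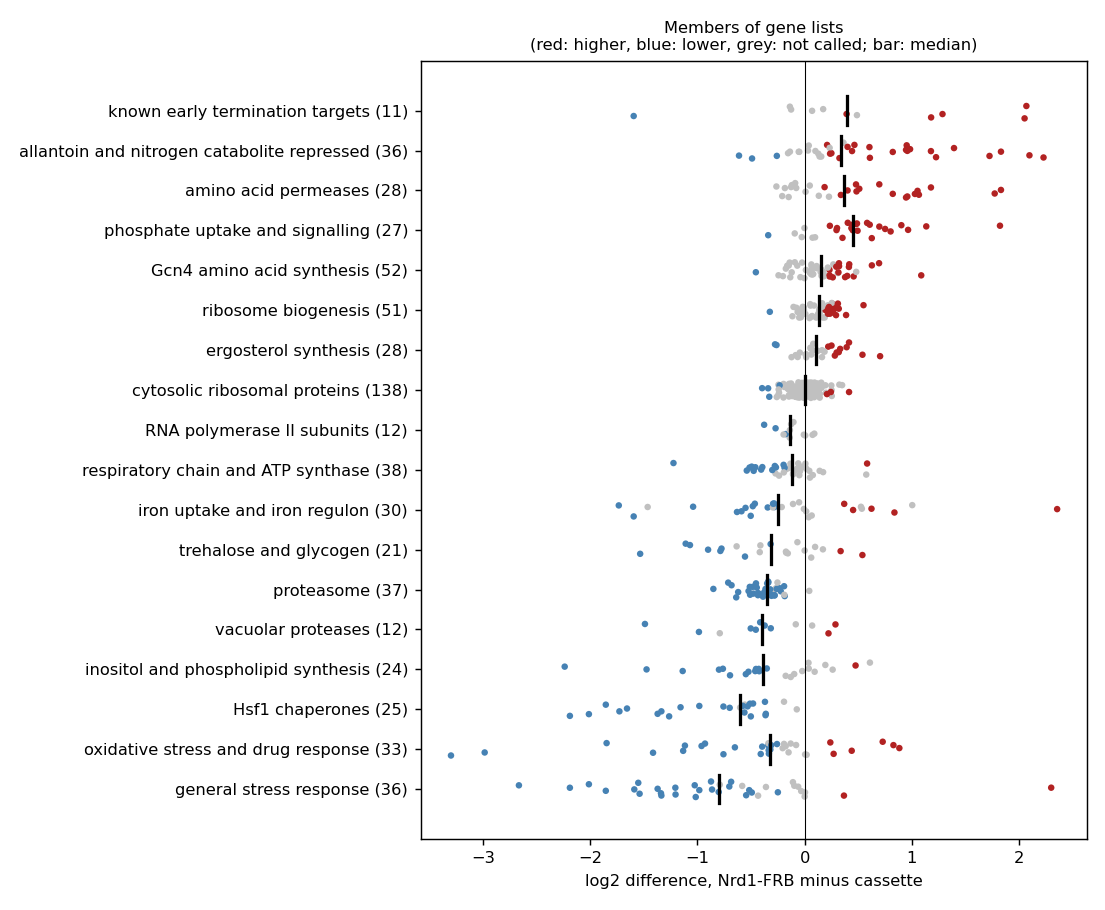
Log2 difference between Nrd1-FRB and cassette libraries (horizontal axis) for each tested member of 18 gene lists (number of members in brackets). Red members rose, blue members fell, grey members were not called, and black bars are list medians, from 0.45 for phosphate genes to -0.80 for general stress genes.

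More phospholipid genes fell than rose. In the list for inositol and phospholipid synthesis 13 of 24 fell and 1 rose, at a median of -0.39; the rises were 2 without Nrd1 library 1 and 5 without Nrd1 library 2. INO1, inositol phosphate synthase (chrX:134332-135933, minus strand), had 1942 and 3538 reads in the cassette and 580.5 and 529.5 after depletion. The controls differed widely but both lay more than 3 times above the depleted values, a log2 difference of -2.24 ± 0.24 (limma adjusted p = 0.001). OPI3, which makes phosphatidylcholine, had 4876 and 5494 in the controls and 1766 and 1961 after depletion (log2 difference -1.48 ± 0.082, limma adjusted p = 9.86e-05). ITR1, the inositol transporter, went from 10398 and 13240.0 to 5318.5 and 5343 (log2 difference -1.14). Ergosterol synthesis, the other large membrane lipid pathway, had 10 rises and 2 falls among 28 genes (35.7% and 7.14%). Of all features 17.5% rose and 17.8% fell. HMG1, the HMG-CoA reductase, was highest in the ergosterol list at 0.70 (3386 and 3445 in the cassette, 5890.4 and 5259 after depletion). In that list 2 genes rose without cassette library 1 and 4 without cassette library 2, with 0 falls by limma in each case, and 4 fell without Nrd1 library 2.

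Storage carbohydrate and glucose entry genes were among the falls. Of all features 17.8% fell, beside 38.1% of the trehalose and glycogen list and 28% of the hexose transporter and sensor list. In the authors' glycolytic class the share was 14.3%. Rises made up 12% of the hexose list, beside 17.5% of all features. Trehalose and glycogen genes had 8 falls and 2 rises among 21, with a median of -0.32. TSL1, a regulatory subunit of trehalose synthase, had 1047 and 1136 in the controls and 509.9 and 277 after depletion (log2 difference -1.53), and PGM2, phosphoglucomutase, went from 799 and 826 to 391 and 361 (log2 difference -1.11). HXK1, a hexokinase, had 678 and 726 in the controls and 207 and 134 after depletion (log2 difference -2.07), and GLK1, glucokinase, went from 1415 and 1529.8 to 692 and 513 (log2 difference -1.30). In these 4 genes the depleted libraries were below both controls, as in 37% of all features. Among 25 hexose transporter and sensor genes 7 fell and 3 rose, with 11 falls without Nrd1 library 1 and 7 rises without Nrd1 library 2; HXT4 was lowest, with 1797 and 1639 in the cassette and 629 and 588 after depletion, and reads of the near-identical HXT6 and HXT7 may be split (log2 differences -1.34 and -1.42). The list of glycolysis and fermentation genes had 4 falls and 2 rises among 25 genes (16% and 8%). The 4 falls, HXK1 and GLK1 among them, were near the share of all features. The falls were 8 by DESeq2 and 15 without Nrd1 library 2, and the rises were 4 without Nrd1 library 1. The authors' own glycolytic class, from the authors' deposited table, had 2 falls of 14, 6 by DESeq2 and 10 without Nrd1 library 2.

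Metal genes went in both directions. CUP1-1, a copper metallothionein gene present in near-identical copies, had 3224 and 2994.5 in the controls and 928 and 946 after depletion (log2 difference -1.73 ± 0.061, limma adjusted p = 2.07e-05), and its copy CUP1-2 was at -1.70. CTR1, the copper importer, went from 645 and 682 to 1521 and 3347, a log2 difference of 1.77. ZRT1, the zinc importer, had 5824 and 6613 in the controls and 13171 and 15497 after depletion (log2 difference 1.20). Of 30 iron genes 13 fell and 5 rose, and without cassette library 1 or 2 the falls came to 5 and 6 and the rises to 3 and 3; without the variance trend 5 fell. With all 4 libraries 43.3% of the iron genes fell and 16.7% rose, beside 17.8% and 17.5% of all features. Log2 differences in the list ran from -1.73 to 2.36, so its largest change was a rise. FET3, the iron-transport oxidase, went from 5034 and 4796 to 1015 and 2146 (log2 difference -1.73). Its partner FTR1 had 4169 and 3748 in the controls and 1772 and 2082 after depletion (log2 difference -1.04). Both genes were lower in each depleted library than in either control, with FET3 differing about as much between the depleted libraries as CTR1 did in the same order.

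Protein synthesis genes moved less. Of 138 cytosolic ribosomal protein genes 3 rose and 4 fell, at a median of 0.0008. The pair of Nrd1 libraries split on them: 130 of the 138 were lower in library 2 than in library 1, and with library 1 left out 4 rose and 41 fell, while with library 2 left out 46 rose and 7 fell. Genes for ribosome assembly had 16 rises and 1 fall among 51, at a median of 0.14, but 1 rose without cassette library 1, 2 without cassette library 2 and 26 without Nrd1 library 1. With all 4 libraries the rises made up 31.4% of this set, beside 17.5% of all features. DHR2, an RNA helicase of this set, was highest at 0.55 (1949.9 and 1927 in the cassette, 2763 and 2914 after depletion). The share of falls among Pol II subunit genes was 25%, beside 17.8% of all features. Pol II subunit genes had 0 rises by limma, edgeR or DESeq2 (0 at an unadjusted limma p under 0.05) and 3 falls among 12, the largest RPB11 at -0.38; without cassette library 1 or 2 none fell by limma, and without library 1 RPB11 had a limma adjusted p of 0.0989. By DESeq2, and by limma with the table scaled to the total of annotated features, 1 of the 12 fell, and without Nrd1 library 2, 8 fell.

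Vacuolar and respiratory genes were mostly lower or not called. Falls made up 58.3% of the vacuolar protease list and 34.2% of the respiratory list, beside 17.8% of all features. Rises made up 38.7% of the pheromone response list, beside 17.5% of all features. Of 12 vacuolar protease genes 7 fell and 2 rose, led by APE1, aminopeptidase I, with 1558 and 1523 in the controls and 535 and 561 after depletion (log2 difference -1.49); 3 fell without cassette library 1 and 2 without cassette library 2. Of 38 respiratory chain and ATP synthase genes 13 fell and 1 rose, led by STF1, an ATPase stabilising factor, with 293 and 251 in the controls and 129 and 103 after depletion; 5 and 6 fell without cassette library 1 and 2, and 2 and 4 rose without Nrd1 library 1 and 2. Of 31 pheromone response genes 12 rose and 0 fell by limma (1 at an unadjusted p under 0.05, 1 by edgeR and 0 by DESeq2), but 2 and 5 rose without cassette library 1 and 2 and 7 by DESeq2. Without Nrd1 library 1, 1 fell, and without Nrd1 library 2, 20 rose and 3 fell. MKK2, a kinase of the cell wall integrity pathway, went from 280.1 and 227 to 688 and 685 (log2 difference 1.44) in a cell wall list where 7 of 36 rose (19.4%, beside 17.5% of all features) and 4 fell. With either cassette library left out, 1 gene rose and 1 fell, without Nrd1 library 1, 12 fell, and without Nrd1 library 2, 13 rose and 7 fell.

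The Nrd1 libraries differed from each other more than the cassette libraries did. In library 2, 283 features (4.46%) were at least 1.5-fold lower than in library 1 and 52 (0.819%) at least 1.5-fold higher, against 66 (1.04%) and 42 (0.662%) between the cassette libraries. Histone genes, which reads may share, were lower in library 2 in 9 of 11 cases, and HTA1 had 3257 and 3472 in the cassette and 4696 and 2718.5 in the Nrd1 libraries. The median log2 difference of library 2 from library 1 over the histone genes was -0.55, beside 0.0029 between the cassette libraries. In bulk libraries, fewer cells of a stage and less RNA per cell cannot be told apart. The opposite order was seen for all 37 proteasome genes and for 22 of 25 Hsf1 targets, which were higher in library 2 at medians of 0.19 and 0.38. The part of this library difference in the falls of those lists was not tested, though both Nrd1 libraries were below both cassette libraries for 36 of the 37 proteasome genes and 24 of the 25 Hsf1 targets, where 37% of all features lay in that order.

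**Figure D4:**
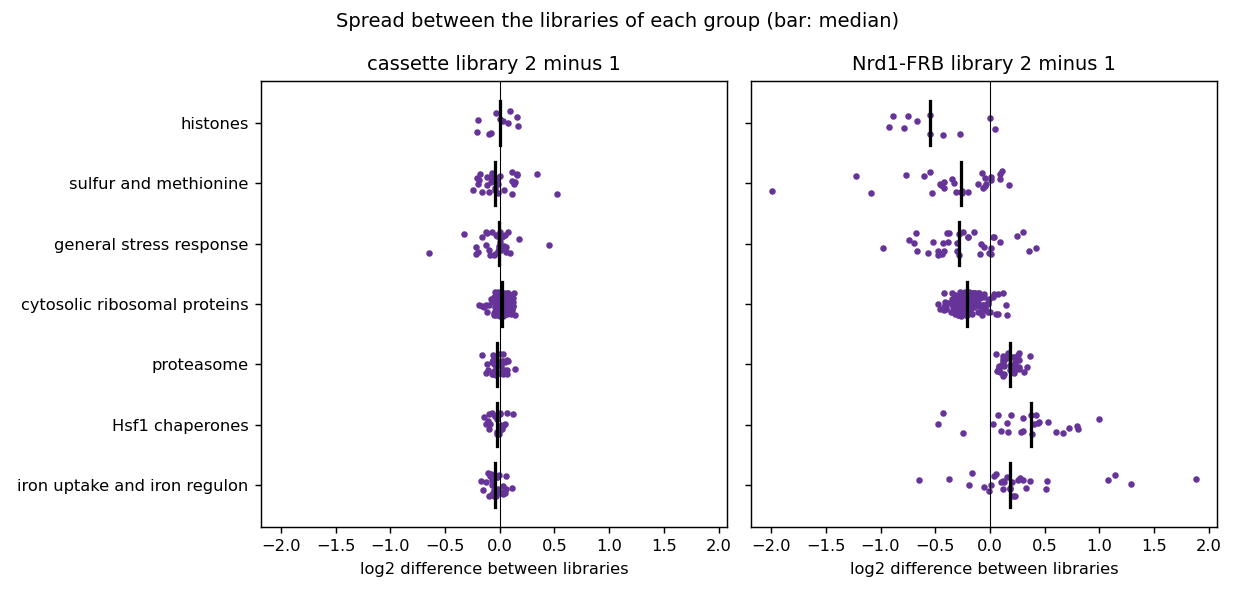
Log2 difference between library 2 and library 1 (horizontal axes) for each tested member of 7 gene lists, in the cassette group and in the Nrd1-FRB group; black bars are medians. Cassette medians stay near 0, while the histone genes have a median of -0.55 and the Hsf1 chaperones one of 0.38 between the Nrd1-FRB libraries.

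Depletion of Nab3, the partner of Nrd1, was measured against the same pair of cassette libraries, in a strain labelled NabFRB (number 2875) treated with rapamycin. A treatment time is labelled for the Nrd1 libraries only. The Nab3 columns are numbered 2 and 3 and the labelled samples 1 and 2, so the columns were used as libraries of that group with no number matched. The tables were put on 1 scale through the cassette libraries, whose recovered reads were identical in both for all 6677 features. In a joint fit of 6385 features 567 were higher after Nrd1 depletion than after Nab3 depletion (8.88%) and 772 were lower (12.1%), by limma at an adjusted p under 0.05. Both groups had rapamycin. They also differ in strain, and neither the tagged protein nor the treatment time is labelled for the Nab3 strain, so the contributions of strain, treatment and depleted protein cannot be told apart. Values after each depletion share the cassette libraries.

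Phosphate genes differed between the depletions. PHO84 changed by a log2 difference of 1.82 after Nrd1 depletion and -2.70 after Nab3 depletion, each against the cassette, and the difference between depletions was 4.52 ± 0.1 (limma adjusted p = 5.33e-08). SPL2 went from -2.03 after Nab3 depletion to 1.14 after Nrd1 depletion, and PHM6 from -1.26 to 0.97. Of the 27 phosphate genes 19 were higher after Nrd1 depletion than after Nab3 depletion and 0 were lower by limma or DESeq2 (2 at an unadjusted limma p under 0.05). Leaving out each library in turn left between 14 and 21 of them higher, and 2 lower without Nrd1 library 2. Inositol genes went the other way: INO1 was at -2.24 after Nrd1 depletion and 0.81 after Nab3 depletion, a difference of -3.05 ± 0.26 (limma adjusted p = 0.000197), and 16 of the 24 genes of its list were lower and 0 higher by limma or DESeq2 (0 at an unadjusted limma p under 0.05). In that list 13 genes rose after Nab3 depletion and 13 fell after Nrd1 depletion.

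Most listed stress genes were lower after Nrd1 depletion than after Nab3 depletion: 25 of 36 were lower and 1 was higher, with 15 lower when either Nab3 library was left out. Against the cassette, 15 fell and 7 rose after Nab3 depletion, at a median of -0.14, beside 24 falls and 2 rises after Nrd1 depletion. TMA10 was at -2.67 after Nrd1 depletion and -0.94 after Nab3 depletion (difference -1.73 ± 0.19, limma adjusted p = 0.000833). Trehalose and glycogen genes had 13 of 21 lower and 0 higher by limma or DESeq2 (0 at an unadjusted limma p under 0.05), or 5 lower without 1 of the Nab3 libraries, with TSL1 at -1.53 and 0.01. Ribosome assembly genes were higher after Nrd1 depletion in 19 of 51 cases and lower in 1; the 19 became 8 and 5 with 1 or the other Nab3 library left out and 10 with either cassette library left out. In the direct comparison of proteasome genes 6 of 37 were lower and 2 higher after Nrd1 depletion, and against the shared cassette libraries 32 fell after each depletion. Leaving out each library in turn left between 1 and 20 lower, the 20 without Nrd1 library 2.

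Some termination genes differed between the depletions and others did not pass the test. NRD1 was at 2.07 after Nrd1 depletion and 1.98 after Nab3 depletion, a difference of 0.09 ± 0.079 that did not pass the test (limma adjusted p = 0.43), and neither did SEN1, at 0.14 ± 0.063 (limma adjusted p = 0.155). HRP1 was higher after Nrd1 depletion by 0.26 ± 0.07 (limma adjusted p = 0.0327) and RAT1 by 0.18 ± 0.055 (limma adjusted p = 0.0458). Of the 21 genes of the Nrd1 complex and exosome 3 were higher after Nrd1 depletion, and of the 25 factors of mRNA 3-prime ends 5, beside 8.88% of all features. TRS31, downstream of SNR13, rose by 1.70 after Nrd1 depletion and 0.40 after Nab3 depletion (difference 1.30 ± 0.08, limma adjusted p = 6.18e-05). IMD2 and URA8 rose less after Nrd1 depletion than after Nab3 depletion, at 2.05 against 2.68 and 1.29 against 1.93.

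**Figure D5:**
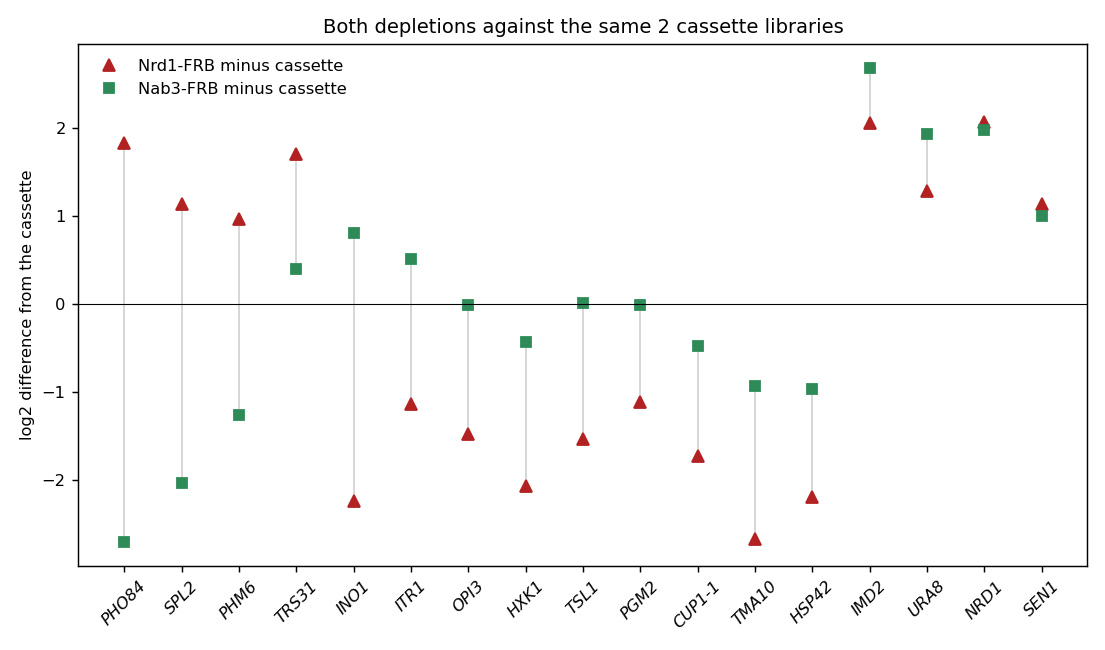
Log2 difference from the same 2 cassette libraries for 17 genes: triangles are the Nrd1-FRB libraries and squares the Nab3-FRB libraries. PHO84 sits at 1.82 and -2.70, INO1 at -2.24 and 0.81, and NRD1 at 2.07 and 1.98.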

How the data were processed

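The deposited values in 2 tables are signal values: reads per feature divided by 1 factor per library, as the values themselves show. The submitters' processing notes name Bowtie 1.1.1, DESeq and the builds R64 and sacCer3, with no role or order. The sources used here give neither counting tool nor strand setting. Feature lengths were another deposited column, and the authors' deposited classes were used as lists.

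All values were whole multiples of 1 read within 0.01 reads (100% of values), which gave each library's depth. Differences were tested with limma 3.58.1 (R 4.3.3, eBayes with trend) on log2(value + 1), a scale that understates the change of low features, over the features that passed the level limit (mean 10), with Benjamini-Hochberg adjustment. The nonoverlap of groups means that every library of 1 group exceeded every library of the other. The joint fit with the Nab3 libraries multiplied the Nrd1 table by 1.18. Alternatives used edgeR 4.0.16, DESeq2 1.42.0, other pseudocounts, filters and scalings, each library left out, and a replicate block. A lone library left in a group is assumed to vary like the others. The script was tested on simulated data.

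Names and coordinates came from RefSeq R64, in which 5912 of 6677 features matched. The members and gene lists were chosen with earlier results of these data known, so a list is described by its counts and median, with no test of its own. Genes to examine singly were picked by rule, and not all of them are described above. The rule took fixed genes, the 10 largest rises and falls with a symbol and the 5 largest without. It also took up to 3 per direction in each list and the largest rises downstream of other genes. The 5 largest differences from Nab3 depletion each way were taken too. RPB2, TOR1, FPR1, RPL13A, FRE4 and FRE7 are among those not described. HSP82, IMD4, OM14, UBX6, HXT6, CUP1-2 and the mating type genes were named after their values were seen. The sources used here mention no molecular identifiers, so depth counts reads and not molecules.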

Additional observations from a re-analysis of the deposited data

Results flagged for a closer look

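The results below are features selected for comparison with Nab3 depletion, or among the 5 largest differences each way, that passed a test. The test was of the difference between Nrd1 and Nab3 depletion itself (limma on the joint scale, adjusted p under 0.05). By it 567 features were higher and 772 lower, so most are not shown here, HRP1 and RAT1 among them. All values given are log2 differences of the Nrd1 minus the Nab3 libraries. Higher after Nrd1 depletion were PHO84 at 4.52, SPL2 at 3.17, YDR194W-A at 2.32, PHM6 at 2.23, YHR022C-A at 2.02, TRS31 at 1.30 and YDR042C at 0.42. YDR194W-A and YHR022C-A are low features, with 11.2 and 9.57 and 24.7 and 31.6 normalised reads in the cassette libraries.

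Lower after Nrd1 depletion were INO1 at -3.05, YEL073C at -2.54, SAM2 at -2.30, YDR034W-B at -1.85, TMA10 at -1.73, ITR1 at -1.65, HXK1 at -1.64, TSL1 at -1.54, OPI3 at -1.46, CUP1-1 at -1.26, HSP42 at -1.23, PGM2 at -1.10, HSP26 at -1.06, URA8 at -0.65 and IMD2 at -0.63. SAM2, an S-adenosylmethionine synthetase gene, had 1192 and 1713.5 in the cassette libraries and 1254 and 589 in the Nrd1 libraries, so its Nrd1 libraries differed by more than 2-fold.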

How the results depend on the processing

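Counts of calls over all features moved by less than 1.5 times under other pseudocounts, filters, scalings and tools, except the 703 falls without the variance trend. Of 34 counts of rises or falls of at least 5 in a gene list, 15 moved by over 1.5 times without the trend, 3 by DESeq2 and 0 under the other pseudocounts, filters and scalings or by edgeR. Without the trend rises went from 16 to 8 for ribosome assembly, 12 to 5 for pheromone response, 10 to 6 for ergosterol synthesis, 16 to 10 for amino acid synthesis and 7 to 2 for the cell wall. Falls went from 13 to 7 for the respiratory chain and 7 to 4 for vacuolar proteases. Without cassette library 1 and 2, 27 and 24 of the 34 moved so, and without Nrd1 library 1 and 2, 5 and 10. With each library left out in turn, rises ranged from 376 to 1758 and falls from 265 to 1864. In the comparison with Nab3 depletion, features higher after Nrd1 depletion ranged from 134 to 923 and lower ones from 275 to 1160. The share of the change that fewer samples bring was not separated from that of each library. Scalings moved the median of all features by at most 0.0066.

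Of 260 genes examined singly, 15 had log2 differences of both signs among the settings. In 7 of them the opposite sign to that of all 4 libraries, with an adjusted p under 0.05, came from leaving out 1 Nrd1 library: 5 histone genes, LEU2 and MET17. Without Nrd1 library 1 and without Nrd1 library 2, the log2 difference was -0.31 and 0.48 for HTA1, -0.28 and 0.47 for HTB1, -0.26 and 0.17 for HHT2, -0.23 and 0.65 for HHF1, -0.34 and 0.22 for HHF2, -0.20 and 0.56 for LEU2, and -1.03 and 0.96 for MET17. The cause was not tested.

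No label ties same-numbered libraries to a shared culture or day, and their deviations had a correlation of 0.013 over 2 pairs, too few to test for a shared batch. With the replicate block 1113 features rose and 1130 fell.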
